A study of Mus musculus with 12 samples.

Results

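Cytokine transcripts of CD8 T cells were examined through 10 genes chosen by symbol: Ifng, Tnf, Lta, Ltb, Il2, Il10, Il21, Csf2, Il16 and Tgfb1. They are 10 of 35855 genes to which the transcripts of the series were joined, and both estimated counts and TPM (transcripts scaled for length and depth) were added up over each gene's transcripts in all 12 RNA-seq libraries. Cytokines are the secreted or membrane-bound proteins through which T cells instruct other cells. CD8 T cells activated by foreign MHC make interferon gamma and tumor necrosis factor, and the balance between these inflammatory products and restraining cytokines such as IL-10 and TGF-beta is known to shape graft-versus-host disease, in which donor T cells attack the tissues of the recipient.

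The libraries form 4 groups of 3, all from mouse spleen. WT pre-transplant libraries come from FACS-sorted CD8 T cells of C57BL/6 mice, and TCF-1 cKO pre-transplant libraries from the same cells of mice with floxed alleles of Tcf7, the gene for the transcription factor TCF-1, and a Cre recombinase under the Cd4 promoter. That Cre acts while thymocytes carry both CD4 and CD8, so CD4 and CD8 T cells lose the gene alike. WT and TCF-1 cKO post-transplant libraries come from H2Kb+ donor CD8 T cells sorted at day 7 from lethally irradiated BALB/c recipients. These recipients had been given CD3 T cells of the named genotype, along with T cell-depleted WT bone marrow of the donor MHC type. H2Kb separates cells of C57BL/6 origin, which include those from this marrow, from those of the host. Pre-transplant samples are described as coming from different mice, but the labels do not tie post-transplant libraries to single recipients, so their p-values measure only the spread between these libraries. For TCF-1 cKO post-transplant replicate 2 another label names CD4 T cells; its Cd4 level was 1.42 CPM (gene counts scaled to a common library total), within the range of the other post-transplant libraries, and it was kept by its title.

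Depth and cell markers set limits on every comparison. Total estimated counts were 4520270 to 9577076 in TCF-1 cKO pre-transplant libraries and 18184814 to 32657005 in the other 9, so that 3 counts, taken as the counting floor of a library, corresponded to 0.0919 to 0.664 CPM. The pre-transplant libraries went against their CD8 T cell label. Their 9 B cell markers summed to 10730 to 19151 CPM, whereas 9 markers of CD8 T cells summed to 2532 to 2868 CPM in WT and 1151 to 1507 CPM in TCF-1 cKO libraries. Post-transplant libraries held 7320 to 8533 CPM of the CD8 T cell markers and 236 to 482 CPM of the B cell markers. Myeloid markers, 11 genes, summed to 1690 to 3867 CPM before transplant, 63.5 to 115 CPM in WT and 137 to 490 CPM in TCF-1 cKO libraries after it. Markers of CD4 T cells (4 genes), NK cells (5) and erythroid cells (5) were likewise higher in every pre-transplant than in every post-transplant library, and no marker of the 6 lists was at 0 throughout a group. In bulk samples, fewer cells of a type and less RNA per cell cannot be told apart.

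**Figure D1:**
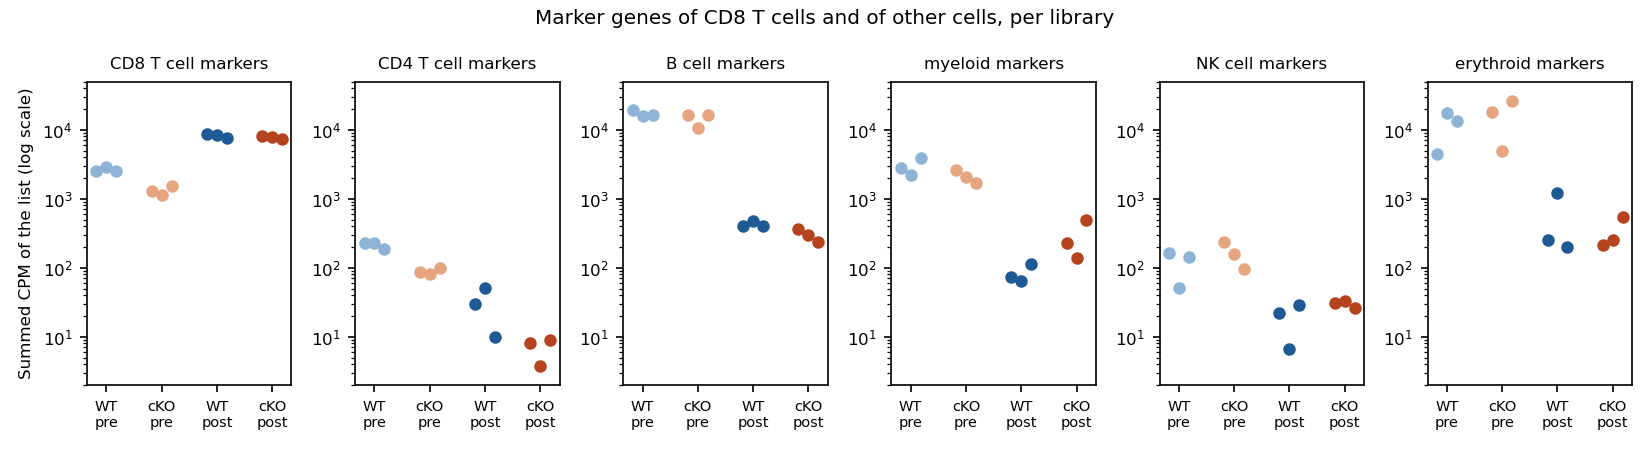
Summed CPM (log scale) of 6 marker lists, with 1 point per library and the 4 groups along each x axis. Pre-transplant libraries hold 10730 to 19151 CPM of B cell markers against 236 to 482 CPM post-transplant, and the CD8 T cell markers lie the other way, at 1151 to 2868 against 7320 to 8533 CPM.

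Tcf7 itself was lower in TCF-1 cKO pre-transplant libraries (56.8, 78.9 and 97.1 CPM) than in WT (152, 115 and 205 CPM). CD8 T cell marker sums were lower in the same libraries (1151 to 1507 against 2532 to 2868 CPM). Their part in the Tcf7 difference was not tested. After transplant Tcf7 was at 17.2, 12.1 and 6.89 CPM in WT and at 9.0, 9.48 and 9.31 CPM in TCF-1 cKO libraries. The library labelled WT post-transplant replicate 3 thus had less Tcf7 RNA than each TCF-1 cKO library, which goes against its label, and results that rest on it are given with and without it. The sum covers every exon of the gene, including those outside the floxed part.

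The 10 genes lie on 6 chromosomes in GRCm38 and differ in base composition. Tnf (chr17:35199381-35202007, minus strand), Lta (chr17:35203165-35205351, minus strand) and Ltb (chr17:35194439-35196320, plus strand) are neighbours and encode tumor necrosis factor, lymphotoxin alpha and lymphotoxin beta, which anchors lymphotoxin on the cell surface. Il2 (chr3:37120523-37125959) and Il21 (chr3:37222759-37232636) lie near each other on the minus strand and encode relatives that signal through the common gamma chain. Ifng is at chr10:118441046-118445892 and Il10 at chr1:131019845-131024974, both on the plus strand. Csf2, which encodes GM-CSF, is at chr11:54247271-54249667 on the minus strand. Il16 (chr7:83642825-83745726, minus strand) encodes a precursor whose cleaved end binds CD4, and Tgfb1 (chr7:25687002-25705077, plus strand) encodes the latent form of TGF-beta1. GC content of their transcripts ran from 39.4% for Il2, 40.5% for Il21, 43.5% for Ifng, 44.5% for Il10 and 44.8% for Csf2 to 52.1% for Tnf, 52.3% for Il16, 55.2% for Tgfb1, 55.7% for Lta and 62.5% for Ltb, where the median gene tested post-transplant had 49.5%.

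Upstream windows are shown for 5 members that changed in a comparison below, because the comparisons turn on a factor that binds DNA. RefSeq windows (GRCm38.p6, up to 250 bases that end at the base before the start) were found for 9 of the 10 members. They are written 5′ to 3′ in the direction of the gene. Capitals mark matches on either strand to GGAAA, the core bound by NFAT, which the T cell receptor activates through calcium, or to GTGTGA, a motif of T-box factors such as T-bet.
Ifng, chr10:118440796-118441045, plus strand: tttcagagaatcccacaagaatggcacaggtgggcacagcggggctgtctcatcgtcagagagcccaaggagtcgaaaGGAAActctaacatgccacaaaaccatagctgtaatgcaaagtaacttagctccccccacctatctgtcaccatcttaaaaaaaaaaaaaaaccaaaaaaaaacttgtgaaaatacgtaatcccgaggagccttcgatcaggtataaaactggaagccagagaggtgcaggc
Il21, chr3:37232637-37232886, minus strand: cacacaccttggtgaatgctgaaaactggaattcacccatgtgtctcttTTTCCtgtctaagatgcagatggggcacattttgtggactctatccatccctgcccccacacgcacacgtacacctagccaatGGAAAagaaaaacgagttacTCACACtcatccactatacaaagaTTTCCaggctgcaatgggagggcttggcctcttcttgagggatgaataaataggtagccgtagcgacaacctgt
Lta, chr17:35205352-35205601, minus strand: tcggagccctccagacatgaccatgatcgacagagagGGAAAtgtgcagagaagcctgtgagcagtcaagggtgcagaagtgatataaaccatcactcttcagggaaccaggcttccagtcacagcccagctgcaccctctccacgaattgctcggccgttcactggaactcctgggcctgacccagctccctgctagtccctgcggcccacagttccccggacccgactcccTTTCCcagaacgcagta
Ltb, chr17:35194257-35194438, plus strand: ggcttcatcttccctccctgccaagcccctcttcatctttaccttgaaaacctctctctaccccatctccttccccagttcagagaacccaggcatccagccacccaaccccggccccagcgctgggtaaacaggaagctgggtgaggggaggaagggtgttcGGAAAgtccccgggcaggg
Tgfb1, chr7:25686752-25687001, plus strand: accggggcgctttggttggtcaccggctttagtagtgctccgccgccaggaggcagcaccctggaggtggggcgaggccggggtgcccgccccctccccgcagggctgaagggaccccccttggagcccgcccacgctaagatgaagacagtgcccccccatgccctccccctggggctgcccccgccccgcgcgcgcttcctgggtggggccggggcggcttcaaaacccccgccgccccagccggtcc

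GGAAA occurred in the windows of Ifng (1 match), Il21 (3), Lta (2) and Ltb (1) and in 55.6% of all 32851 windows, and it has no match in that of Tgfb1, 75.2% of whose bases are G or C. GTGTGA matched once in the Il21 window and in 12.3% of all windows. CTTTGA, the core of sites bound by TCF-1 and its relative LEF-1, was in 13.8% of all windows and matched none of the 5 shown. Among the members it matched once, in the window of Il2. These matches describe letters in the windows and not bound sites.

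Levels of different genes are compared as TPM, which is scaled for transcript length. Ltb was the highest of the 10 in each group by mean, at 1077 ± 177 TPM in WT pre-transplant libraries (SD, n = 3, as throughout) and 647 ± 571 TPM in TCF-1 cKO pre-transplant libraries. Il16 followed before transplant, at 230 ± 13.9 TPM in WT and 138 ± 36.7 TPM in TCF-1 cKO libraries, and its range met that of neither Ltb nor Lta. Lta and Tgfb1, next in order, overlapped each other in both genotypes, and Tnf and Ifng after them did too. In WT post-transplant libraries the order became Ltb (421 ± 195 TPM), Il16 (51.2 ± 6.49), Ifng (23.4 ± 13.2), Csf2 (10.7 ± 1.82), Tgfb1 (5.97 ± 2.40) and Il10 (3.54 ± 2.42), with overlap between Ifng and Csf2 and between Tgfb1 and Il10. In TCF-1 cKO post-transplant libraries Ltb (102 ± 18.3 TPM) and Ifng (79.8 ± 28.3) overlapped at the top, followed by Csf2 (29.8 ± 6.32) and Il16 (25.2 ± 6.48), which also overlapped. Ifng made up 20.0%, 37.5% and 39.6% of the summed TPM of the 10 genes in those 3 libraries, against 4.06%, 1.67% and 11.1% in WT post-transplant libraries and at most 1.16% before transplant.

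Several members were at or under 3 counts. Il2, the T cell growth factor, had at most 16 counts in any library and stood at 0, 1 and 1 counts in the WT pre-transplant libraries. Il10 was at or under the floor in 2 of 3 WT and 1 of 3 TCF-1 cKO pre-transplant libraries. Csf2 was there in 1 WT and 2 TCF-1 cKO pre-transplant libraries, and Il21 in 1 library of each pre-transplant group and in 2 of 3 WT post-transplant libraries. Lta reached the floor only after transplant, in 1 WT and 2 TCF-1 cKO libraries, and Tnf only in TCF-1 cKO post-transplant replicate 2, with 0 counts. Ifng, Ltb, Il16 and Tgfb1 were above it in all 12 libraries.

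**Figure D2:**
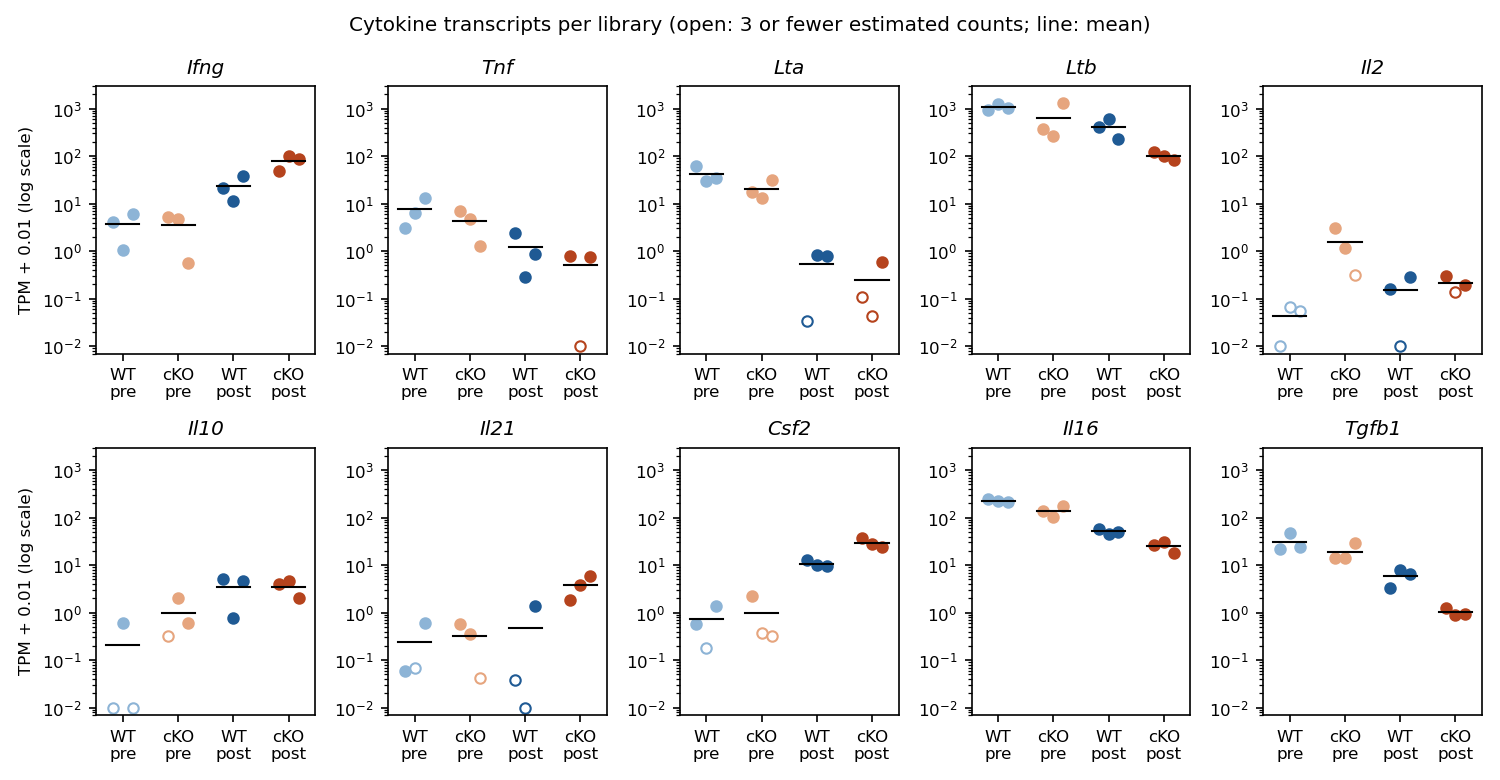
TPM + 0.01 (log scale) of each of the 10 genes in the 12 libraries, by group, with the mean as a line and libraries at 3 or fewer counts as open points. Ifng and Csf2 rise from pre- to post-transplant and stand highest in TCF-1 cKO post-transplant libraries, whereas Lta falls from 13.2 to 61.5 TPM before transplant to at most 0.822 TPM after it.

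To determine whether loss of TCF-1 alters cytokine transcripts of alloactivated donor cells, TCF-1 cKO and WT post-transplant libraries were compared. Ifng was higher in TCF-1 cKO libraries, while Ltb, Il16 and Tgfb1 were lower, by edgeR's quasi-likelihood test at an FDR of 0.1. These are 4 of the 9 members tested, Il2 having too few counts, where 17.9% of all 16026 genes tested were called, 2.51% higher and 15.4% lower. The groups did not overlap in 6 of 10 members, where 42.8% of all genes tested did not. For each of the 6 the exact permutation p was 0.1, two-sided, the smallest that 3 libraries against 3 can give. Leaving out any of the 6 libraries other than the library labelled WT replicate 3 left 0 members called, and leaving out that library gave 5. The loss and gain covered all genes, with 0 to 2 called in the former fits and 5299 of 18183 in the latter.

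Ifng, the interferon that arms macrophages and raises antigen presentation, was at 48.0, 102 and 88.9 TPM in TCF-1 cKO and at 21.1, 11.6 and 37.6 TPM in WT post-transplant libraries. The groups did not overlap, and the library labelled WT replicate 3 lay nearest to the TCF-1 cKO libraries. The log2 fold change was 1.70 ± 0.52 (SE, edgeR adjusted p = 0.0773), and 2.03 without that library. The coding transcript Ifng-201 carried 92.2% to 100% of the gene's TPM in the post-transplant libraries, and a retained-intron form the rest.

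Il21, made by helper-type T cells and known to sustain CD8 T cells, was at 1.85, 3.81 and 5.80 TPM in TCF-1 cKO libraries and at 0.0278, 0 and 1.38 TPM in WT libraries. Every TCF-1 cKO library was above every WT library, yet the log2 fold change of 2.83 ± 1.49 did not pass the test (edgeR adjusted p = 0.250). The library labelled WT replicate 3 held 98 counts and the other WT libraries 3 and 0, and without it the log2 fold change was 7.39 and passed. At such counts the fitted value depends on the prior count.

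Csf2, whose product mobilizes and activates myeloid cells, was at 36.8, 28.1 and 24.5 TPM in TCF-1 cKO against 12.8, 10.04 and 9.39 TPM in WT libraries. The groups did not overlap, and the log2 fold change of 1.28 ± 0.45 narrowly missed the threshold (edgeR adjusted p = 0.106). It passed with DESeq2 (adjusted p = 0.0367), library totals (edgeR adjusted p = 0.0701), a filter on CPM (edgeR adjusted p = 0.0800) and equal depth (edgeR adjusted p = 0.0971), and it was 1.07 without the library labelled WT replicate 3 (edgeR adjusted p = 0.149).

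Ltb, needed for the architecture of lymphoid organs, was at 120, 102 and 83.1 TPM in TCF-1 cKO libraries and at 415, 619 and 229 TPM in WT libraries. The TCF-1 cKO libraries lay close together below a wide WT group, of which the library labelled replicate 3 was the lowest. The log2 fold change was −2.35 ± 0.55 (edgeR adjusted p = 0.0448), and −2.75 without that library. Il16 was at 27.0, 30.5 and 18 TPM in TCF-1 cKO against 58.4, 45.7 and 49.5 TPM in WT libraries, and its log2 fold change of −1.27 ± 0.42 passed narrowly (edgeR adjusted p = 0.0942), and was −1.44 without that library. Its transcript Il16-203 carried 84.8% to 98.7% of the gene's post-transplant TPM.

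Tgfb1, a suppressor of T cell responses, was at 1.22, 0.881 and 0.910 TPM in TCF-1 cKO libraries and at 3.37, 8.09 and 6.47 TPM in WT libraries. The groups were well apart, with a log2 fold change of −2.65 ± 0.59 (edgeR adjusted p = 0.0448), and −2.91 without the library labelled WT replicate 3. The transcripts of Tgfb1 were also compared by their share of the gene's TPM. Tgfb1-201, which encodes the protein, held 45.5%, 58.1% and 14.0% of the gene's TPM in TCF-1 cKO and 86.1%, 98.5% and 39.1% in WT libraries, so the groups overlapped. Tgfb1-204, annotated as a retained intron, held 26.1%, 41.9% and 85.5% in TCF-1 cKO and 4.94%, 1.52% and 19.0% in WT libraries, without overlap. Only 49 to 75 counts lay behind these shares in each TCF-1 cKO library. The TPM of Tgfb1-204 itself overlapped (0.318, 0.369 and 0.778 against 0.166, 0.123 and 1.23). Before transplant its share was also higher without overlap in TCF-1 cKO libraries (42.8%, 44.7% and 27.9% against 20.4%, 13.9% and 16.2%). No share over all transcripts is given for such differences.

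The remaining members gave no call. Il10, an inhibitor of antigen-presenting cells, was at 3.98, 4.59 and 2.05 TPM in TCF-1 cKO and at 5.16, 0.762 and 4.70 TPM in WT libraries, with a log2 fold change of −0.11 ± 0.69 and overlapping groups. Tnf was at 0.778, 0 and 0.726 TPM against 2.40, 0.281 and 0.882 TPM (log2 fold change −1.46 ± 1.27), and Lta at 0.0988, 0.0333 and 0.583 TPM against 0.0233, 0.822 and 0.768 TPM (−1.37 ± 1.35). Their counts ran from 0 to 127 per library and differed widely between libraries of 1 group. Without the library labelled WT replicate 3, log2 fold changes were 0.0086 for Il10, −1.72 for Tnf and −1.27 for Lta, and none passed. Il2 had 16 counts in the 3 TCF-1 cKO and 11 in the 3 WT libraries, a depth-scaled ratio of 1.87 (95% interval 0.814 to 4.45, counting error only).

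Marker sums of other cells differed by genotype after transplant without overlap. Myeloid marker sums were higher in TCF-1 cKO libraries (137 to 490 against 63.5 to 115 CPM), while those of CD4 T cells (3.82 to 8.98 against 9.87 to 50.3 CPM) and B cells (236 to 369 against 405 to 482 CPM) were lower. Cd4 itself overlapped (4.31, 1.42 and 2.41 against 0.799, 2.49 and 3.25 CPM). Ighm held most of the B cell sum (327, 265 and 203 against 375, 422 and 369 CPM). By edgeR, 2 of 4 CD4 T cell markers and 0 of 9 B cell markers were called lower, where 15.4% of all genes were. Of 10 myeloid markers tested, 2 were called higher, where 2.51% of all genes were. The part of other cells in the results was not tested. Levels were also taken per 1000 counts of CD8 T cell markers, a scale added after the data were seen. Ifng was higher on it in every TCF-1 cKO library (8.24, 17.7 and 17.2 against 2.56, 1.5 and 6.44). Csf2 was higher too, and Ltb, Il16 and Tgfb1 were lower. Il21 overlapped on that scale, at 0.715 against 0.716 for the nearest libraries. The marker sums themselves were close (7320 to 7988 against 7544 to 8533 CPM), so the scale changes levels little. It cannot show the part of other cells, and 2 of the 9 markers were called lower in TCF-1 cKO libraries.

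The post-transplant differences also moved with base composition. Across the genes tested, the genotype log2 fold change fell with GC content (Spearman's rho across genes −0.57, a description, as genes are no independent replicates), and its median was 0.65 in the tenth of genes with the lowest and −2.59 in the tenth with the highest GC content. The 3 members that stood higher in TCF-1 cKO libraries have at most 44.8% GC, and the 3 that stood lower at least 52.3%. When GC content and length were fitted as an offset, none of the 4 calls remained, and log2 fold changes were 0.77 for Ifng, −0.11 for Ltb, −0.70 for Il16, −1.35 for Tgfb1, 2.43 for Il21 and −0.11 for Csf2, which thereby turned. Among the 1373 genes within 1 percentage point of its GC content, Ifng stood at percentile 91.3, and Il21 at 98.7 among 753. Ltb stood at 58.7 among 104 such genes, Il16 at 30.0 among 1701, Tgfb1 at 26.6 among 1607 and Csf2 at 78.7 among 1617.

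**Figure D3:**
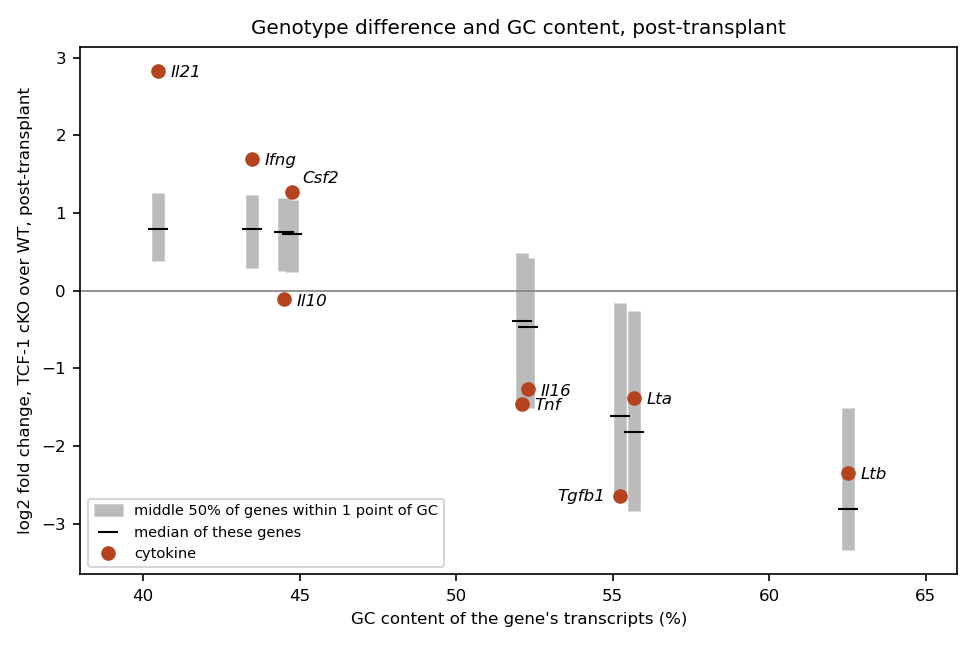
GC content (%) of each tested member against its log2 fold change, TCF-1 cKO over WT post-transplant (points), with the median and middle 50% of all genes within 1 percentage point of the same GC content. Il21 (2.83) and Ifng (1.70) lie above the bars, Csf2 (1.28) just above its bar, Il10 (−0.11) below, and Tnf, Lta, Ltb, Il16 and Tgfb1 within or at the edge of theirs.

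Pre-transplant libraries were compared to ask whether the genotypes differ before alloactivation. None of the 7 members tested was called by edgeR, at a background of 0.0373% (7 of 18757 genes), 1 of the 7 had an unadjusted p under 0.05 against 17.7% of all genes, and limma-voom and DESeq2 called none of them either. All 7 estimates were negative with TMM, and those of Ifng (0.02) and Il21 (0.37) turned with library totals. Il16 was at 135, 102 and 175 TPM in TCF-1 cKO and at 245, 226 and 218 TPM in WT libraries, the only tested member whose groups did not overlap, where 27.8% of all genes did not. Its log2 fold change was −0.96 ± 0.42 (edgeR adjusted p = 0.269). Lta stood at 17.4, 13.2 and 31.6 TPM against 61.5, 30.2 and 35.4 TPM, with overlap (−1.18 ± 0.55, edgeR adjusted p = 0.283).

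Ltb was at 367, 269 and 1304 TPM in TCF-1 cKO and at 926, 1273 and 1033 TPM in WT pre-transplant libraries (−0.85 ± 0.61). TCF-1 cKO replicate 3, the deepest of its group, was far above the other two and level with WT. Without it Ltb (−2.23), Lta (−1.94) and Il16 (−1.42) passed the edgeR test, of 10 members tested in that fit. Of all 21575 genes in that fit, 1922 were called lower and 817 higher, against 7 called with the library. Ifng (5.15, 4.78 and 0.560 against 4.03, 1.05 and 6.17 TPM), Tnf (7.08, 4.72 and 1.24 against 3.02, 6.46 and 13.2 TPM) and Tgfb1 (14.3, 14.1 and 29.1 against 21.7, 46.8 and 23.9 TPM) overlapped between genotypes. Il2 had 24 counts in the TCF-1 cKO and 2 in the deeper WT libraries, a depth-scaled ratio of 45.2 (95% interval 11.2 to 394, counting error only), and every TCF-1 cKO library was above every WT library. In the fit with all libraries of this comparison, Il2 was too low to enter the test across genes.

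CD8 T cell markers were lower in TCF-1 cKO than in WT pre-transplant libraries (1151 to 1507 against 2532 to 2868 CPM), while the B cell marker sums overlapped. Per 1000 counts of CD8 T cell markers, Il16 overlapped (354, 287 and 378 in TCF-1 cKO, 294, 243 and 266 in WT libraries). Tgfb1 stood higher on that scale in every TCF-1 cKO library (17.4, 18.9 and 23.9 against 11, 14.8 and 9.80). In CPM Tgfb1 overlapped (22.2, 21.8 and 36.1 against 27.8, 42.4 and 25.1), with a log2 fold change of −0.53 ± 0.51. The scale divides by marker counts that were lower in TCF-1 cKO libraries, and no share over all genes is given for it.

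**Figure D4:**
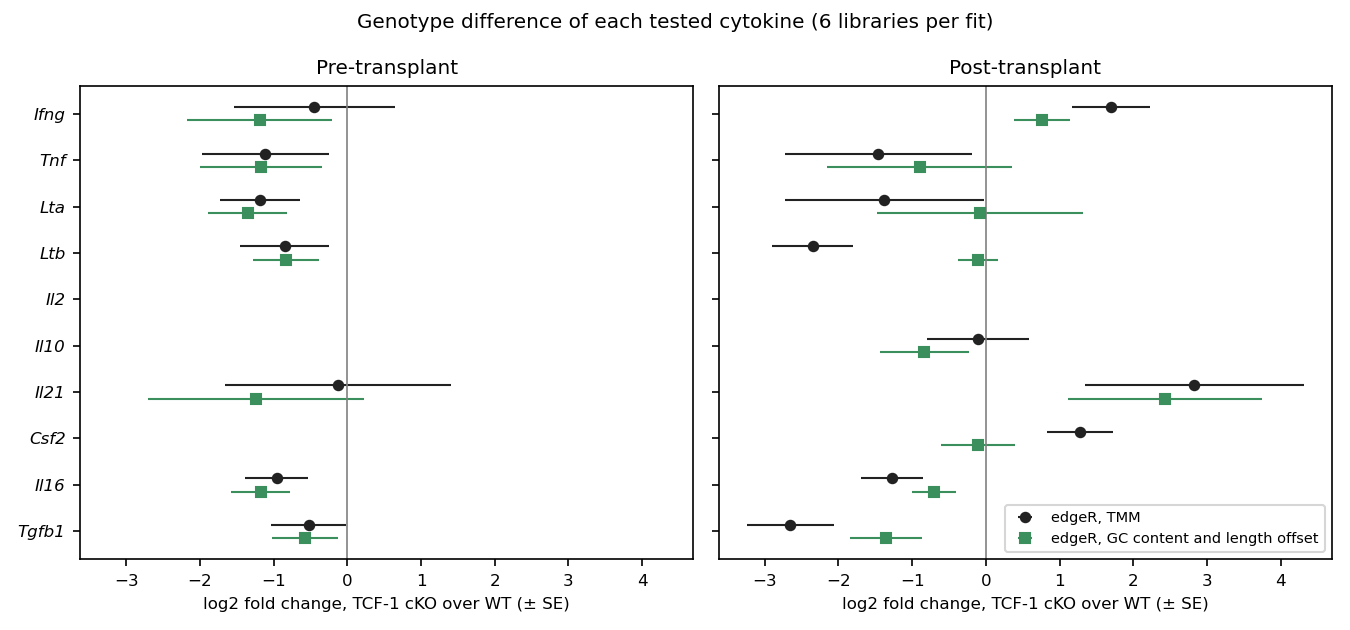
Log2 fold change (± SE) of each tested member, TCF-1 cKO over WT, before (left) and after (right) transplant, with TMM normalization (circles) and with a GC content and length offset (squares). Post-transplant Ltb moves from −2.35 to −0.11 and Csf2 from 1.28 to −0.11 with the offset, while pre-transplant estimates stay below 0.

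Stage was then compared within each genotype. Pre- and post-transplant libraries differ in cell markers as well as in alloactivation, so stage and cell make-up cannot be told apart. In WT libraries 4 of 8 tested members were called, at a background of 20.0% of 16790 genes, 9.7% higher and 10.3% lower. Ifng, Il10 and Csf2 were higher post-transplant and Lta was lower. Between stages 8 of the 10 members did not overlap in CPM, where 44.5% of genes did not. In TMM-scaled CPM 5 members did not overlap, with no share over all genes given on that scale. In TCF-1 cKO libraries 6 of 9 were called, at a background of 36.5% of 18535 genes, 19.7% higher and 16.8% lower. Here Ifng, Il10, Il21 and Csf2 were higher and Lta and Tgfb1 lower. In CPM 9 of the 10 members did not overlap, where 64.6% of genes did not. In TMM-scaled CPM 6 did not, again without a share over all genes. Without the library labelled WT post-transplant replicate 3, the same 4 members were called in WT, at 3.41 for Ifng, 5.24 for Il10, 5.37 for Csf2 and −5.03 for Lta. Both comparisons use the same post- and pre-transplant libraries as the genotype comparisons.

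Ifng rose by a log2 fold change of 3.70 ± 0.82 in WT (edgeR adjusted p = 0.0156) and 6.60 ± 0.73 in TCF-1 cKO libraries (edgeR adjusted p = 0.000244). In both, the lowest post-transplant library was above the highest pre-transplant library in CPM. Csf2 rose from 0.573, 0.167 and 1.39 TPM to 12.8, 10.04 and 9.39 TPM in WT, a log2 fold change of 5.06 ± 1.01. In TCF-1 cKO libraries it went from 2.25, 0.362 and 0.311 TPM to the 24.5 to 36.8 TPM given above, or 6.98 ± 0.73, and the ratio of pooled counts (1443 against 10) was 45.4 (95% interval 24.6 to 94.8, counting error only).

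Il10 was at 0, 0.593 and 0 TPM in WT pre-transplant libraries and rose by 5.39 ± 1.65 (edgeR adjusted p = 0.0555), a call lost without WT pre-transplant replicate 1 or 3 or post-transplant replicate 1. WT pre-transplant replicate 2 held all 13 counts of that group, and without it the estimate was 10.29, which depends on the prior count. In TCF-1 cKO libraries it started from 0.319, 2.06 and 0.594 TPM and rose by 3.84 ± 0.78 (edgeR adjusted p = 0.00592). Its TPM ranges in TCF-1 cKO libraries just overlapped, at 2.06 before and 2.05 after transplant. Il21 rose by 5.61 ± 0.87 in TCF-1 cKO libraries from 0.554, 0.347 and 0.0331 TPM, and was not tested in WT, where its groups overlapped. Per 1000 counts of CD8 T cell markers, Il10 overlapped between stages in both genotypes, Ifng in WT and Il21 in TCF-1 cKO libraries, while Csf2 was still higher post-transplant in every library of both genotypes.

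Lta fell furthest of the members tested, with log2 fold changes of −5.06 ± 1.07 in WT and −4.54 ± 1.0 in TCF-1 cKO libraries, from 705 to 2030 counts in WT and 75 to 397 in TCF-1 cKO pre-transplant libraries to between 1 and 30 counts. B cells also make Lta, Ltb and Il16, and B cell markers fell over the same libraries; their part in these differences was not tested. Tgfb1 fell in TCF-1 cKO libraries, by 1.73 ± 0.53 (edgeR adjusted p = 0.0361), a call lost when TCF-1 cKO pre-transplant replicate 3 (−1.08) or post-transplant replicate 1 or 2 was left out. In WT its log2 fold change was −0.31 ± 0.62. Tnf had log2 fold changes of −1.57 ± 0.96 in WT and −1.08 ± 1.17 in TCF-1 cKO libraries, Ltb of −0.18 ± 0.51 and −1.02 ± 0.68, and Il16 of −0.95 ± 0.42 and −0.58 ± 0.43, and none of these passed the test. With the GC content and length offset, Ltb passed as lower in both, at −1.51 in WT (edgeR adjusted p = 0.0128, and 0.0385 with the replicate block added) and −1.05 in TCF-1 cKO libraries (edgeR adjusted p = 0.0814, and 0.168 with the block). In WT without the library labelled post-transplant replicate 3, estimates were 0.36 for Ltb and 0.095 for Tgfb1, which thereby turned, −0.70 for Il16 and −1.28 for Tnf.

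These values follow TMM normalization, under which the median gene changed by −0.30 in WT and −0.29 in TCF-1 cKO libraries. With library totals alone the median gene changed by −1.25 and −1.89, and all members moved down with it. Then Ltb (−1.26) and Il16 (−1.92) also passed as lower in WT, and Tnf (−2.80), Ltb (−2.42) and Il16 (−2.11) in TCF-1 cKO libraries. Over all genes, 4136 of 16790 were then called lower and 717 higher in WT libraries. In TCF-1 cKO libraries 10608 of 18535 were lower and 1660 higher. Ifng, Il10 and Csf2 stayed higher and Lta lower in both genotypes on either scale.

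**Figure D5:**
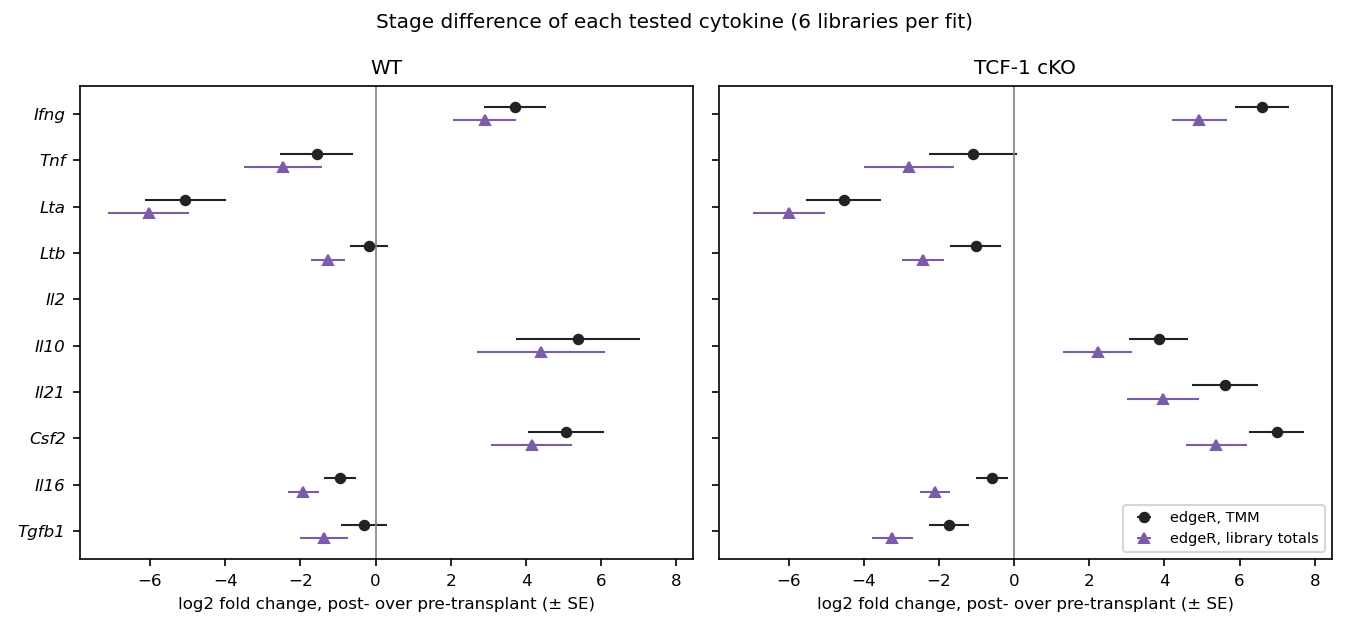
Log2 fold change (± SE), post- over pre-transplant, of each tested member in WT (left) and TCF-1 cKO libraries (right), with TMM normalization (circles) and library totals (triangles). Ifng, Il10 and Csf2 lie to the right of 0 and Lta to the left on both scales, and library totals shift every member to lower values.

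Whether the genotype difference changed with stage was asked by an interaction term fitted to the 12 libraries. Of 9 members tested none was called, at a background of 0.00465% (1 of 21526 genes). Only Ifng had an unadjusted edgeR p under 0.05, where 15.7% of all genes did, with an interaction of 2.62 ± 1.0 (edgeR adjusted p = 0.258), and limma-voom and DESeq2 called no member. Tgfb1 followed with −1.70 ± 0.81 (edgeR adjusted p = 0.323). Without the library labelled WT post-transplant replicate 3, Ifng (3.21) and Il21 (8.28) passed, so that 1 library decides these calls. In that fit 10 members were tested, and of all 23972 genes 1313 were called higher and 780 lower.

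Receptors and regulators of the 10 cytokines were described by 6 further lists. Of 19 receptor genes, 1 was higher and 7 lower in TCF-1 cKO post-transplant libraries, with a median log2 fold change of −0.41 against 0.15 over all genes tested, of which 2.51% were called higher and 15.4% lower. These shares are the background for each list in that comparison. Lower were Il2rb (−3.53 ± 0.77) and Il2rg (−1.86 ± 0.51), which form the receptor for IL-2, the latter also serving IL-21, Il21r (−2.73 ± 0.69), Il10ra (−2.19 ± 0.50), Tnfrsf1b (−3.43 ± 0.69) and Tnfrsf1a (−2.89 ± 0.92) for TNF, and Ltbr (−3.38 ± 1.10) for lymphotoxin. Tgfbr3, a co-receptor of TGF-beta, was higher (3.04 ± 0.92) at 2.56 against 0.229 CPM. With the GC content and length offset, Tnfrsf1b (−2.37) and Il2rg (−2.30) were still called lower and none was called higher.

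Of 23 transcription factors that act on cytokine genes, 9 were lower and none higher post-transplant (median −0.96 against 0.15 over all genes, 15.4% of which were lower). Tbx21, which encodes T-bet and is known to drive Ifng, averaged 320 CPM in WT and 57.2 CPM in TCF-1 cKO libraries (−3.10 ± 0.68). Stat5b (−3.44 ± 0.73) and Stat5a (−2.70 ± 0.91) transmit IL-2 signals, and Nfatc1 (−2.49 ± 0.65), Rela (−4.28 ± 1.14), Junb (−3.20 ± 0.69) and Jun (−3.34 ± 0.93) act downstream of the T cell receptor. Runx3, a regulator of the CD8 lineage, also fell (−2.50 ± 0.63). With the offset 1 factor of the list was still called lower. The 8 named here were not, and their GC content ran from 53.8% to 62.6%.

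Targets of interferon gamma did not move one way with Ifng. Of 16, Iigp1 was higher (1.69 ± 0.47) and Socs1 (−3.77 ± 0.82), Tap1 (−3.53 ± 0.79), Psmb9 (−2.63 ± 0.63) and Psmb8 (−2.13 ± 0.70) were lower post-transplant, with a list median of −0.07. Iigp1 has 40.0% GC and the 4 lower genes 55.5% to 58.5%, and none of the 5 was called with the offset. Of 10 RNA-binding proteins that act on cytokine mRNA, Khsrp (−2.71 ± 0.70) and Zfp36 (−2.70 ± 0.79), both of which hasten decay of such mRNA, were lower and none was higher (median −0.98), a share near the 15.4% of all genes. Of 14 proteins that process or activate members, 12 were tested and 2 were lower (median −0.38), namely Nrros (−3.79 ± 0.84), which tethers latent TGF-beta, and Rhbdf2 (−3.22 ± 0.85), which helps the protease that releases TNF. Of 26 other cytokines, 15 were tested and only Tnfsf14 was called (−1.78 ± 0.51, median 0.37). None of these 5 genes was called with the offset. In the pre-transplant and interaction comparisons no gene of the 6 lists was called.

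Without the library labelled WT post-transplant replicate 3, where 9.72% of all genes were higher and 19.4% lower between genotypes post-transplant, no gene called with it turned and only Tgfbr3 lost its call. Counts were then 1 higher and 9 lower among receptors, 10 lower among transcription factors, 1 and 5 among interferon gamma targets, 3 lower among RNA-binding proteins, 1 and 3 among processing proteins and 4 and 2 among other cytokines. For the interaction, 3 receptors were then called higher and 2 lower, 3 transcription factors and 2 other cytokines higher, 2 interferon gamma targets higher and 1 lower, and 2 processing proteins lower. In that interaction fit, 1313 of all 23972 genes tested were called higher and 780 lower.

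Between stages the lists moved in both directions, beside the marker differences given above. Of all genes tested, 9.7% rose and 10.3% fell in WT and 19.7% rose and 16.8% fell in TCF-1 cKO libraries, the background for each list, and several of the shares that follow are near it. Counts follow TMM. With library totals, 4 genes called in TCF-1 cKO libraries turned (Il10rb, Ikzf3, Elavl1 and Irgm1). More genes of each list, and more of all genes, were then called lower. Without the library labelled WT post-transplant replicate 3, where 13.4% of genes rose and 8.79% fell in WT, no called gene of the 6 lists turned and Cd40lg and Nfatc2 lost their calls. Among receptors, 1 rose and 7 fell in WT, led by Ifngr2 (−5.30 ± 0.70), Cd4 (−4.90 ± 0.69) and Csf2rb (−4.74 ± 0.69), and 4 rose and 7 fell in TCF-1 cKO libraries, led by Il2ra (4.99 ± 0.52), Ifngr2 (−4.28 ± 0.46) and Csf2ra (−3.38 ± 0.57). Among other cytokines, 1 rose and 4 fell in WT and 3 rose and 3 fell in TCF-1 cKO libraries. Fasl, the death ligand of cytotoxic cells, rose in both (4.40 ± 0.76 and 5.45 ± 0.41), Il1b fell in both (−8.13 ± 1.19 and −3.49 ± 0.66), Il12a fell in WT (−7.62 ± 1.08) and Tnfsf10 rose in TCF-1 cKO libraries (1.84 ± 0.43). Myeloid markers fell over the same libraries as Il1b and Il12a, and their part was not tested. Transcription factors rose in 2 and fell in 6 cases in WT, and rose in 6 and fell in 6 in TCF-1 cKO libraries. Batf rose by 4.0 ± 0.49 and 5.98 ± 0.52, Tbx21 by 2.89 ± 0.67 and 2.67 ± 0.51, Stat4 by 3.19 ± 0.43 in TCF-1 cKO, and Fos fell by 4.65 ± 1.05 in WT libraries.

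RNA-binding proteins had 3 falls and no rise in WT and 3 falls and 2 rises in TCF-1 cKO libraries, with Zfp36l1 (−3.53 ± 0.51 and −3.41 ± 0.63) and Zfp36 (−2.54 ± 0.71 and −3.50 ± 0.51) lower in both, Rc3h1 lower in WT (−3.0 ± 0.70) and Elavl1 higher in TCF-1 cKO (1.41 ± 0.38). Of the processing genes, 1 rose and 2 fell in WT and 1 rose and 4 fell in TCF-1 cKO libraries. Mmp9, a secreted matrix protease, fell in both (−5.06 ± 1.21 and −5.54 ± 1.0), Lrrc32 fell in WT (−3.96 ± 0.93) and Nrros in TCF-1 cKO libraries (−2.99 ± 0.60). Interferon gamma targets rose in 3 and fell in 1 case in WT, and rose in 7 and fell in 2 in TCF-1 cKO libraries. With library totals the counts were 1 higher and 4 lower in WT and 1 higher and 7 lower in TCF-1 cKO libraries. Over all genes, library totals gave 717 higher and 4136 lower of 16790 in WT libraries. In TCF-1 cKO libraries they gave 1660 higher and 10608 lower of 18535, so the shift was not particular to these targets. Ciita, the master regulator of MHC class II and high in B cells, fell in both (−6.18 ± 0.72 and −5.68 ± 0.69), Psmb8 (2.66 ± 0.49) and Psmb9 (1.78 ± 0.55) rose in WT, and Igtp (2.47 ± 0.36) and Ifi47 (2.15 ± 0.36) rose in TCF-1 cKO libraries.

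The genes most alike to each member were sought among 9686 genes by Pearson's r of log2(CPM + 1) over the 12 libraries, which share their groups, depth and base composition. They were H2afz (0.98) and Snrpe (0.98) for Ifng, Nfrkb (0.99) and Tdrp (0.99) for Lta, Tln1 (0.98) and Fam98c (0.98) for Ltb, Nfkbid (0.99) and Ikbkb (0.99) for Il16, and Id3 (0.98) and Arsa (0.97) for Tgfb1. The other 5 members had a mean under 10 CPM and were not compared.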

How the data were processed

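RNA of 12 sorted samples was made into SMART-Seq HT cDNA and Nextera XT libraries and sequenced paired end. The authors pseudoaligned the reads with Kallisto 0.46.2 and deposited an estimated count per transcript, neither scaled nor filtered, and a TPM value, scaled by the authors' run for transcript length and library total. The submitters' processing notes also name limma and mm9, and the transcript release is not given in the sources used here.

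The members and gene lists were chosen with earlier results of these data known. Transcripts were joined without version to GENCODE M21 (GRCm38): 116374 of 117497 matched, giving 35855 genes. Estimated counts were summed by gene and rounded. CPM divides these by the library total. TMM-scaled counts were tested with edgeR 4.0.16 (filterByExpr, quasi-likelihood, Benjamini-Hochberg over all tested genes, FDR 0.1), each comparison on its own 6 libraries and the interaction on 12. SE is the log2 fold change over the root of F. The model was run on simulated counts without a trend over GC content, so its behaviour under such a trend was not tested. Samples were grouped by title. Exact permutation tests were two-sided. Reads carry no molecular identifiers, so floors and intervals (exact, 95%) cover counting error only. Alternatives were limma-voom 3.58.1, DESeq2 1.42.0, its size factors, library totals, filters, TPM-scaled counts, equal depth, a replicate block, a GC content and length offset (loess, span 0.4), 1 fit over 12 libraries and leaving out each library. Named genes of each list were the 3 called with the smallest p per comparison and all called between genotypes. Values of 2 list genes that this rule names are not reported here. For members with a mean of at least 10 CPM, the 2 most alike genes were named. R 4.3.3 and Python 3.11.15 were used. Promoter windows came from RefSeq.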

Additional observations from a re-analysis of the deposited data

How the results depend on the processing

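Members called post-transplant between genotypes, 4 with TMM, numbered 0 with the GC content and length offset, alone or with the replicate block, 2 with the replicate block, 2 in 1 fit over all 12 libraries and 2 at an FDR of 0.05, and 5 with limma-voom (Il21 added), DESeq2 or the CPM filter (Csf2 added), and 3 with no filter (Il16 lost). Leaving out 1 library gave 0 to 5 of them, where each omission other than that of the library labelled WT replicate 3 left 0. Pre-transplant the range was 0 to 3 against 0, in WT between stages 3 to 4, in TCF-1 cKO 5 to 6, and for the interaction 0 to 2. The cause was not tested. Members without overlap between WT stages numbered 8 in CPM and 5 in TMM-scaled CPM, and between TCF-1 cKO stages 9 and 6. The share over all genes is given for CPM only, at 44.5% in WT and 64.6% in TCF-1 cKO libraries. Over all genes, calls went from 7 to between 0 (replicate block) and 1451 (DESeq2) pre-transplant and 0 to 2739 leaving out 1 library, from 2868 to between 2 and 4524 post-transplant and 0 to 5299, and from 1 to between 0 and 1713 for the interaction and 0 to 2093. They were 3097 to 4853 against 3362 in WT and 5157 to 12268 against 6774 in TCF-1 cKO libraries between stages, and 1579 to 4156 and 5242 to 7114 leaving out 1. Same-numbered replicates correlated by −0.11 to 0.12 in their deviations, so the numbers were not taken to pair the libraries, and the replicate block changed member calls in no comparison other than the post-transplant one.

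Among members, signs turned only for estimates that missed the threshold with TMM. Pre-transplant, Ifng gave 0.017 with library totals, and Il21 0.35 with limma-voom, 0.37 with library totals and 0.95 with the replicate block. Post-transplant, Il10 gave 0.086, 0.20 and 0.052 in those 3 and 0.13 in 1 fit over 12 libraries, Csf2 −0.11 with the offset, and Lta 0.054 with block and offset. Between stages, Ltb in WT gave 0.056 with DESeq2 or its size factors and 0.071 in 1 fit over 12 libraries, and Il16 in TCF-1 cKO 0.018 with the offset and 0.037 with block and offset. For the interaction, Tnf gave −0.79 (limma-voom), −0.35 (library totals), −0.40 (block), −0.51 (block and offset) and −1.16 (equal depth). Lta gave −0.077 (DESeq2), −0.032 (its size factors) and −1.14 (equal depth), Ltb 0.31 (offset) and 0.50 (block and offset), and Il16 −0.041 with DESeq2 and with its size factors, −0.18 (library totals), −0.074 (no filter) and −0.29 (equal depth).

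Leaving out 1 library, ranges that crossed 0 were, pre-transplant, −0.94 to 0.069 for Ifng and −1.03 to 0.26 for Il21, post-transplant, −0.59 to 0.22 for Il10, between stages, −0.53 to 0.36 for Ltb and −0.71 to 0.29 for Tgfb1 in WT and −1.36 to 0.52 for Ltb in TCF-1 cKO, and for the interaction −0.79 to 1.22 for Tnf, −1.66 to 0.91 for Lta, −1.79 to 0.23 for Ltb and −0.36 to 0.48 for Il16. Of all member estimates under alternatives, 472 kept direction and side of the threshold, 13 gained a call, 18 lost it and 30 turned; leaving out 1 library these numbers were 249, 6, 26 and 24. Counts were low for Il2, Il10, Il21 and Csf2 before and Tnf, Lta and Il2 after transplant, and nothing is said of their absence.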
